A study of Drosophila melanogaster with 11 samples.

Results

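The sequence examined here is chrM, the mitochondrial genome of *Drosophila melanogaster*, which is 19524 bp long in the genomes to which the MicroC libraries were aligned. It was chosen by name alone, as the only sequence of the 8 in the authors' lists of chromosome lengths that is neither an arm of chromosomes 2 and 3 nor chromosome 4, X or Y. Its contacts with itself and with the arms 2L, 2R, 3L, 3R and X make 6 classes of the 36 pairs of sequences for which contacts were counted, and all 6 classes held contacts in all 11 libraries. Contacts of chrM with chromosomes 4 and Y were not analysed here.

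The libraries came from whole embryos aged 12 to 16 hr, labelled stage 14, in which the *nhomie* boundary upstream of *even skipped* had been exchanged. There were 2 libraries of *nhomie forward* (the boundary put back in its own orientation), and 3 each of *λ DNA* (phage sequence in its place), *nhomie reverse* (the boundary inverted) and *homie forward* (a copy of the *homie* boundary). All 4 replacements share the recombination sites and cassette exchange at this place on arm 2R, no unmodified embryos were analysed here, and each library came from a large pool of embryos of a fly line. The libraries held 87012109 to 472473246 unique contacts, the read pairs that passed the authors' quality filters, each counted once. Replicate 1 of *homie forward*, *nhomie reverse* and *λ DNA* stood apart, with 52.7% to 61.5% of its contacts cis (within a sequence) and under 1 kb apart, against 32.2% to 48.3% in the other 8 libraries.

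The mitochondrial genome is a circle that lies inside the mitochondrion, behind its own membranes, and is passed on through the egg. Cells hold many copies of it. It is not wrapped around histones but is packed by the protein TFAM into nucleoids. In MicroC, fixed chromatin is digested with MNase and neighboring DNA ends are joined, so that a read pair with one end on chrM and the other on a nuclear arm joins DNA from separate compartments of the living cell. Such pairs are often used as a measure of joining between molecules that were not neighbors. Whether the pairs counted here arose in this way was not tested.

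In RefSeq (Release 6 plus ISO1 MT), the mitochondrial genome carries 37 genes, of which 13 encode proteins, 22 encode tRNAs and 2 encode rRNAs. *COX1*, which encodes a core subunit of cytochrome c oxidase, spans 1474 to 3009 of this sequence, *CYTB*, the cytochrome b of respiratory complex III, spans 10499 to 11635, and *srRNA*, the RNA of the small mitochondrial ribosomal subunit, spans 14131 to 14916. No gene follows *srRNA*, so that 4608 bp, or 23.6% of the sequence, lie beyond the last gene. The deposited counts give only the sequence on which each end lies, so the contacts below were not assigned to genes or positions within chrM.

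Contacts of chrM were few, between 0.0642% and 0.138% of the unique contacts of a library. In *nhomie forward*, chrM had 218688 contacts in replicate 1 and 314943 in replicate 2. In *λ DNA* it had 63097, 242014 and 199085 in replicates 1, 2 and 3. In *nhomie reverse* the numbers were 194329, 293281 and 233576, and in *homie forward* 91478, 82309 and 59994. These numbers also depend on the depth of the libraries, so they were set against the unique contacts of each.

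Most chrM contacts were with the nuclear arms and not with chrM itself. Per 1000000 unique contacts, those with the 5 arms together numbered 527 and 553 in *nhomie forward*, 533, 1110 and 1094 in *λ DNA*, 849, 1241 and 1222 in *nhomie reverse*, and 676, 506 and 493 in *homie forward*. Contacts of chrM with chrM numbered 115 and 114 per 1000000 in *nhomie forward*, 192, 113 and 121 in *λ DNA*, 235, 137 and 147 in *nhomie reverse*, and 265, 147 and 157 in *homie forward*. The 3 highest values of contacts within chrM were those of replicate 1 of *homie forward*, *nhomie reverse* and *λ DNA*, and the other 8 libraries lay between 113 and 157. Contacts with the arms were ordered differently, and the 4 highest values were those of replicates 2 and 3 of *λ DNA* and *nhomie reverse*.

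**Figure D1:**
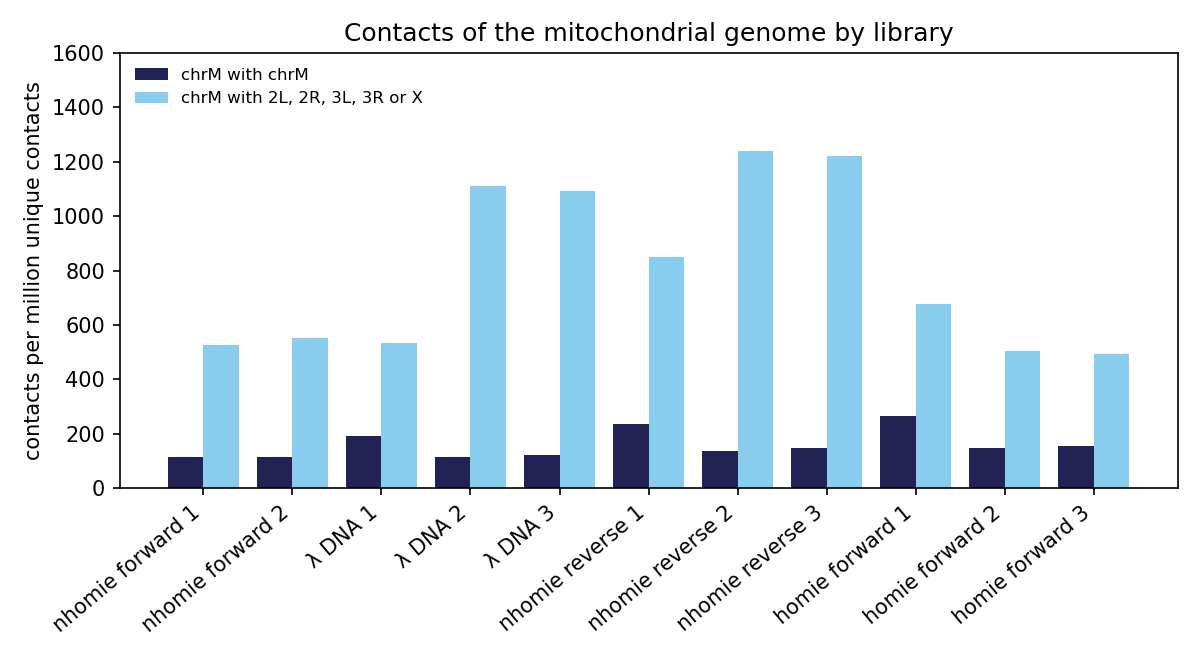
Contacts of chrM with itself (dark bars) and with the 5 large arms (light bars), per 1000000 unique contacts, in each of the 11 libraries (genotype and replicate number on the horizontal axis). In every library the light bar is the higher, and it ranges from 493 to 1241 per 1000000, while the dark bar ranges from 113 to 265.

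The first question was how densely chrM was covered by contact ends relative to the nuclear arms. Each contact has 2 ends, and a contact within a sequence gives both to it. With 3814 to 18885 ends per kb of chrM and 1302 to 7066 per kb of the 5 arms, chrM was the more densely covered in every library. The ratio of these densities was 2.59 and 2.67 in *nhomie forward*, 3.14, 4.58 and 4.58 in *λ DNA*, 4.53, 5.20 and 5.20 in *nhomie reverse*, and 4.13, 2.74 and 2.76 in *homie forward*. Both *nhomie forward* libraries lay below all others, the *nhomie reverse* libraries lay at the upper end and overlapped *λ DNA*, and *homie forward* and *λ DNA* overlapped each other. These ratios count ends that mapped to the reference with sufficient quality. They are not copy numbers, since digestion, fixation, recovery and mappability may differ between mitochondrial and nuclear DNA and were not measured.

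Replicates 2 and 3 of *λ DNA*, *nhomie reverse* and *homie forward* were counted as 1 sample each. Earlier results of these data had shown their trans contacts to be alike within or near sampling noise. Their chrM contacts were also spread over the 5 arms alike within sampling noise (chi-square tests of counts, p = 0.583, 0.689 and 0.323). Replicate 1 differed from replicate 2 in each of these genotypes (chi-square per degree of freedom of 15.7, 8.48 and 6.15). Once contacts within chrM were added as a class, replicates 2 and 3 did differ (chi-square of 13.0, 18.7 and 11.1 for each degree of freedom). Both libraries of *nhomie forward*, which were kept as 2 samples, were also alike over the arms (chi-square test, p = 0.153) and differed with that class added (15.3 for each degree of freedom). Each genotype thus had 2 samples, and the mean density ratio, with the SD of these samples, was 2.63 ± 0.0562 for *nhomie forward*, 3.44 ± 0.977 for *homie forward*, 3.86 ± 1.02 for *λ DNA* and 4.86 ± 0.479 for *nhomie reverse*. The difference between genotypes did not pass the test (two-sided exact permutation test with the F ratio as its statistic, log2 values, 8 samples, p = 0.105, Benjamini-Hochberg adjusted p = 0.524 over 5 measures). No p below 0.00952 can be reached with 4 genotypes of 2 samples, and a single genotype that lies apart from the other 3 can give p as high as 0.143, so a difference of 1 genotype alone could be missed. With the 11 libraries as separate samples the exact p was 0.0247 and its adjusted p 0.123.

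Within replicate numbers, the order of *λ DNA* and *homie forward* turned around. In replicate 1, *homie forward* (4.13) lay above *λ DNA* (3.14), and in replicate 2 it lay below it (2.74 against 4.58). *nhomie forward* was the lowest (2.59 and 2.67) and *nhomie reverse* the highest (4.53 and 5.20) in both replicates 1 and 2, and in replicate 3 *nhomie reverse* was again the highest (5.20).

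The share of chrM contacts that were cis, with both ends on chrM, was 18.0% and 17.1% in *nhomie forward*, 26.5%, 9.25% and 9.96% in *λ DNA*, 21.7%, 9.96% and 10.8% in *nhomie reverse*, and 28.2%, 22.5% and 24.1% in *homie forward*. The 95% Wilson interval of these shares extends no more than 0.344 percentage points to each side, covering counting error only, so the spread between libraries sets their error. The share for the large arms, computed from the same 6 sequences, lay between 75.3% and 87.9% over all arms and libraries, and no chrM value reached that range. The 2 shares are not on equal terms. A sequence of 19524 bp cannot hold the longer cis contacts that arms of 23513712 to 32079331 bp can. The part of this length limit in the difference was not tested. Replicate 1 had the highest cis share of its genotype in each of the genotypes with 3 libraries, and the drop from replicate 1 to the mean of replicates 2 and 3 was 2.76-fold in *λ DNA*, 2.09-fold in *nhomie reverse* and 1.21-fold in *homie forward*. The means ± SD of the 2 samples were 25.7% ± 3.45 for *homie forward*, 18.1% ± 11.9 for *λ DNA*, 17.5% ± 0.623 for *nhomie forward* and 16.0% ± 8.02 for *nhomie reverse*. The SD within *λ DNA* was larger than any difference between genotype means, that within *nhomie reverse* was not, and the test over genotypes called no difference (exact permutation test, p = 0.610, adjusted p = 0.610).

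**Figure D2:**
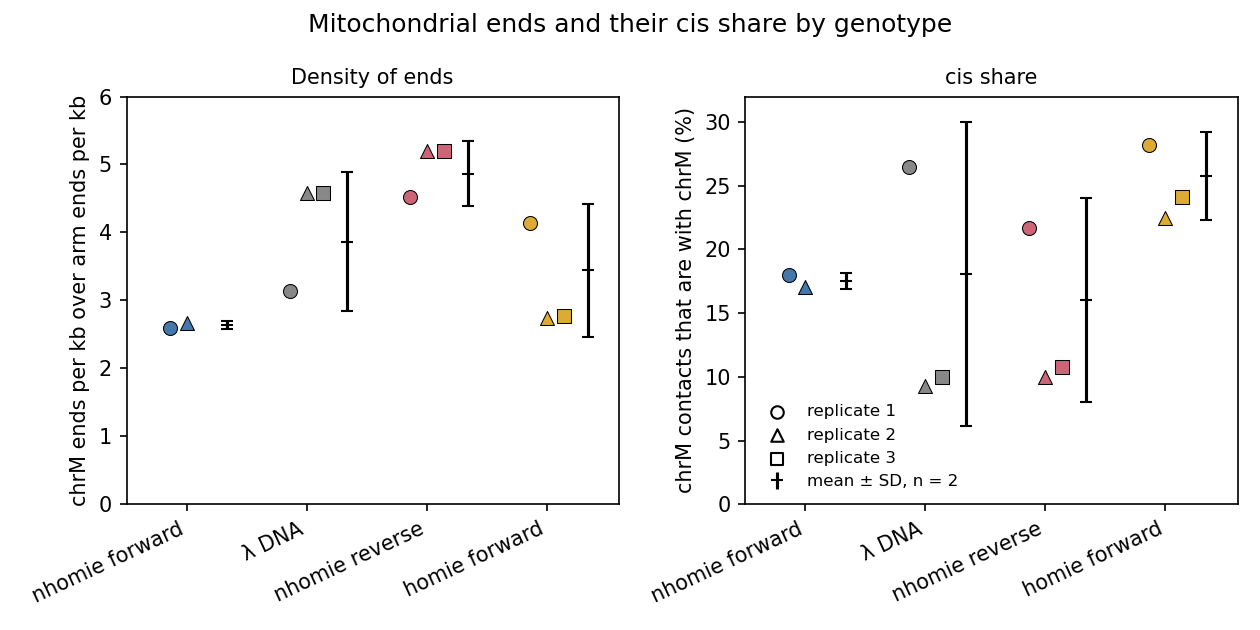
Left, density of chrM ends as a ratio to the density of ends on the 5 arms; right, percent of chrM contacts with both ends on chrM. Symbols are libraries by replicate number, and bars give the mean ± SD of the 2 samples of a genotype, with replicates 2 and 3 averaged; *nhomie forward* stays between 2.59 and 2.67 on the left, while replicate 1 of *λ DNA* (26.5%) lies far above its replicates 2 and 3 (9.25% and 9.96%) on the right.

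The libraries in which contacts within chrM were most frequent were also those richest in short pairs. Over the whole genome, the cis contacts under 1 kb, which can include fragments that were never joined to another, were 52.7%, 61.5% and 59.1% of the unique contacts in replicate 1 of *λ DNA*, *nhomie reverse* and *homie forward*. Without these 3 libraries, the cis share of chrM lay between 9.25% and 24.1% and its density ratio between 2.59 and 5.20. Genotypes were not tested without all 3, since this leaves 3 genotypes with 1 sample. Counted per 1000000 of these short contacts, chrM–chrM contacts ranged from 293 to 449 over the 11 libraries. The value of 449 was reached both in *homie forward* replicate 1 and in *nhomie reverse* replicate 3. Replicate 1 still lay above the mean of replicates 2 and 3 in *λ DNA* (365 against 302) and *homie forward* (449 against 316). In *nhomie reverse* it lay below that mean (383 against 436). Contacts by separation were counted over the whole genome, so how many chrM–chrM contacts were short was not analysed here, and the part of short pairs in the cis share was not tested.

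**Figure D3:**
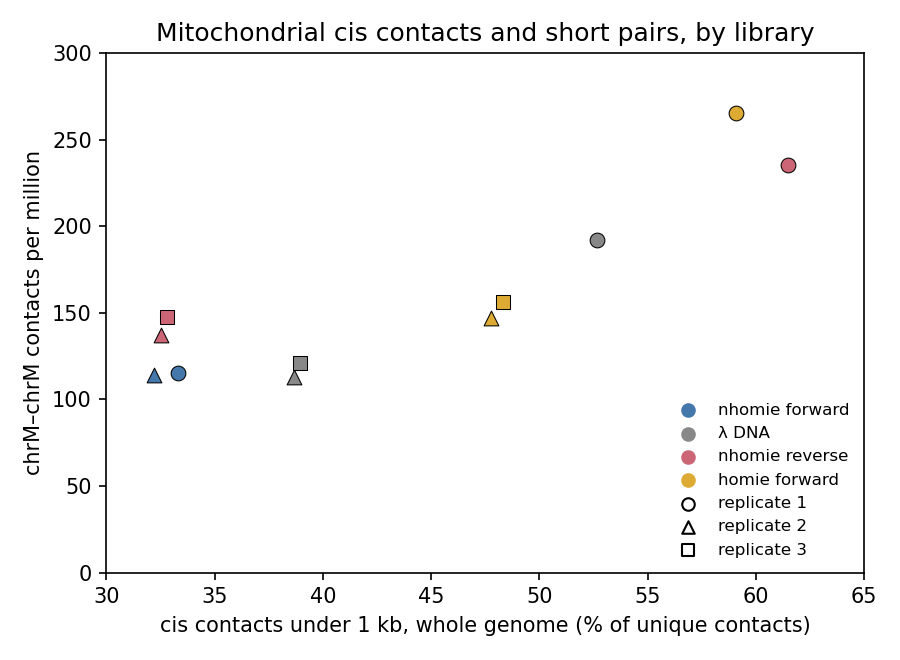
Contacts within chrM per 1000000 unique contacts (vertical axis) against the whole-genome share of cis contacts under 1 kb in percent (horizontal axis), 1 point per library. The 3 points of 192 or more per 1000000 are replicate 1 of *λ DNA*, *nhomie reverse* and *homie forward*, which also have the highest shares of short contacts, 52.7% to 61.5%.

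Seen from the nuclear side, between 249 and 627 in 1000000 ends on the 5 arms were joined to chrM. The numbers were 266 and 279 in *nhomie forward*, 269, 561 and 553 in *λ DNA*, 429, 627 and 618 in *nhomie reverse*, and 341, 256 and 249 in *homie forward*. The means ± SD of the 2 samples were 272 ± 9.31 for *nhomie forward*, 297 ± 62.9 for *homie forward*, 413 ± 204 for *λ DNA* and 526 ± 137 for *nhomie reverse*. Both *nhomie reverse* samples lay above both samples of *nhomie forward* and *homie forward*, but the genotypes did not pass the test (exact permutation test on log2 values, p = 0.276, adjusted p = 0.603). Per 1000000 arm ends in contacts between chromosomes, this order did not hold. There *nhomie reverse* replicate 1 (4212) lay below all libraries of *nhomie forward* (4554 and 4644) and *homie forward* (4910 to 5048). The exact permutation test over genotypes then gave p = 0.971. Contacts with chrM made up 0.540% to 1.02% of all trans contacts, those with ends on different sequences, and trans contacts were 7.23% to 13.8% of the unique contacts.

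The ends of chrM were shared out between cis and trans contacts in another way than those of the arms. Of the ends on chrM, 69.6% and 70.8% were joined to an arm in *nhomie forward*, 58.1%, 83.1% and 81.9% in *λ DNA*, 64.3%, 81.9% and 80.6% in *nhomie reverse*, and 56.0%, 63.3% and 61.2% in *homie forward*. Of the ends on the arms, 5.07% to 10.2% were joined to an arm of another chromosome. The arms can hold cis contacts far longer than chrM, and these shares do not account for that. An arm cannot meet its own chromosome in this count whereas chrM can meet all 5 arms, so the comparison was also made per product of ends. The contacts of chrM with the arms were divided by the product of chrM ends and arm ends, and this quotient was divided by that of the 8 pairs of arms from different nuclear chromosomes. The resulting ratio was 7.26 and 7.18 in *nhomie forward*, 5.01, 6.61 and 6.54 in *λ DNA*, 3.88, 5.48 and 5.40 in *nhomie reverse*, and 5.08, 7.56 and 7.37 in *homie forward*. In counts, *nhomie forward* replicate 1 had 179427 contacts of chrM with the arms, where the quotient of the nuclear pairs gave 24707. The ratio is the share of chrM ends joined to an arm over the share that this quotient gives, 8.30% to 16.6%. It thus restates the shares above on another scale.

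Over the 8 samples the geometric mean of this ratio was 5.85, and it was above 1 in all of them (two-sided exact sign-flip permutation test on log2 values, p = 0.00781, the smallest that 8 samples allow, adjusted p = 0.00938 over 6 tests). As the ratio restates the shares of ends, this test is no separate evidence beside them. The 8 nuclear pairs taken one by one lay between 0.931 and 1.11 on this scale, and the pairs of arms of 1 chromosome, 2L with 2R and 3L with 3R, between 1.11 and 1.43. The value depends on which ends are counted. All ends of an arm include those of its many cis contacts. When arm ends were counted only in contacts between chromosomes, the mean was 0.435, between 0.361 and 0.535 in single libraries. The ends of chrM still included those of its cis contacts there. A ratio built in this way cannot reach 1 whatever chrM met, so its direction carries no information. Per product of lengths in place of ends, an alternative chosen after the values were seen, it was 21.5, between 16.1 and 31.2. The ratio per product of ends therefore states how the ends of chrM were shared out and is not a rate at which molecules met. It did not differ between genotypes by the test (exact permutation test, p = 0.362, adjusted p = 0.603), with means ± SD (n = 2) of 7.22 ± 0.0564 for *nhomie forward*, 6.27 ± 1.68 for *homie forward*, 5.79 ± 1.11 for *λ DNA* and 4.66 ± 1.10 for *nhomie reverse*. Replicate 1 had the lowest value of its genotype in *homie forward*, *nhomie reverse* and *λ DNA*, and without these 3 libraries the ratio lay between 5.40 and 7.56.

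**Figure D4:**
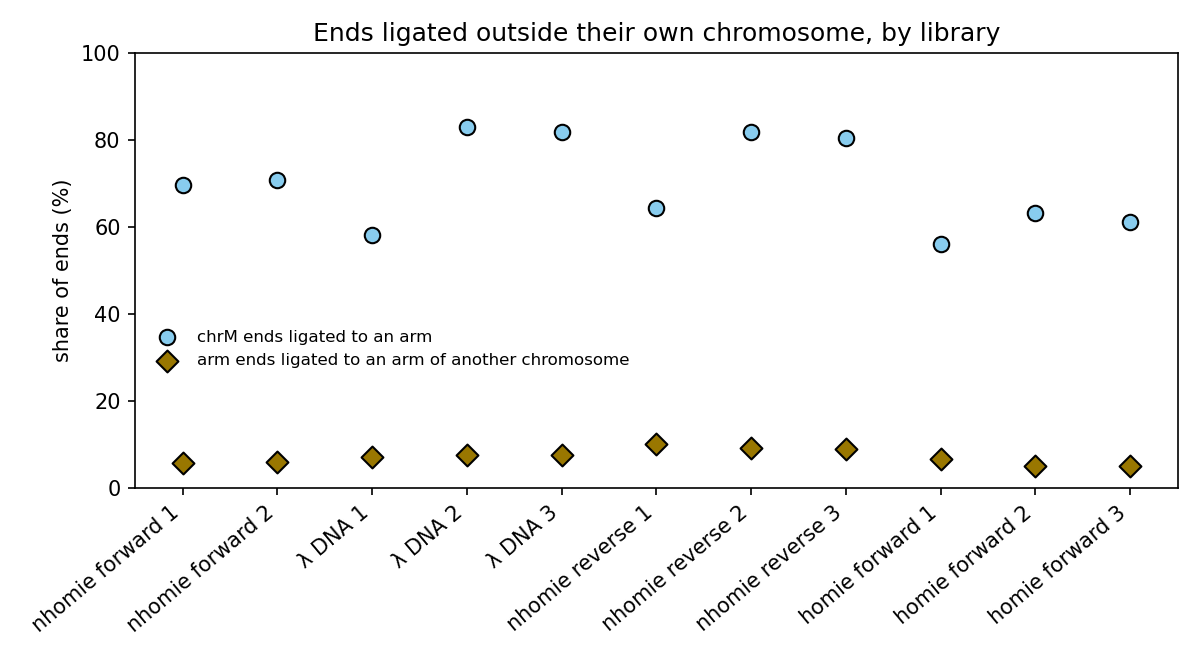
Percent of chrM ends joined to an arm (circles) and percent of arm ends joined to an arm of another chromosome (diamonds) in each library. The circles lie between 56.0% and 83.1% and the diamonds between 5.07% and 10.2%, and in no library do they meet. The shares do not account for the length of chrM, which cannot hold the long cis contacts of an arm.

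The next question was whether chrM met some arms more often than others. In every library the longest arm, 3R, had the most contacts with chrM and X had the fewest, although X is slightly longer than 2L. The order of 2L and 2R changed between libraries. In the deepest library, *nhomie forward* replicate 2, chrM had 48513 contacts with 2L, 49250 with 2R, 54912 with 3L, 66457 with 3R and 42045 with X. In the library with the fewest, *homie forward* replicate 3, the same arms had 8556, 8513, 10080, 11393 and 6990. Over all libraries, 18.1% to 19.2% of the contacts with the 5 arms fell on 2L, 18.5% to 19.3% on 2R, 20.8% to 22.1% on 3L, 25.0% to 25.8% on 3R and 14.9% to 16.1% on X.

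Against the share of all contact ends that each arm held in the same library, these counts deviated by a few percent. The X chromosome, which is present once in males, had more contacts with chrM than its ends gave in all 11 libraries, with an observed-to-expected ratio of 1.03 to 1.12 and a geometric mean of 1.07 over the 8 samples (exact sign-flip test, p = 0.00781, adjusted p = 0.00938). The 2 highest values, 1.11 and 1.12, were those of *nhomie forward*. The ratio was also above 1 for 3L (mean 1.02, range 1.005 to 1.06), and below 1 for 2R (mean 0.959, range 0.943 to 0.981) and 3R (mean 0.976, range 0.967 to 0.991), each with the same exact p and adjusted p. For 2L the libraries lay on both sides of 1 (mean 0.997, range 0.974 to 1.01, exact p = 0.469). The ratios of a library are tied, since observed and expected shares each add up to the whole. An excess on some arms thus requires a deficit on others, and the tests of single arms are not separate results.

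These small deviations depended on the expectation. When the expectation was the length of the arms, X fell below 1 (mean 0.882, range 0.839 to 0.906), 3R and 2L rose above it (means 1.05 and 1.06), and 2R and 3L were near it (0.995 and 0.999). Counting the ends of each arm only in contacts between chromosomes moved X, 3L and 3R further from 1. Their means were 0.738, 1.15 and 1.16, and those of 2L and 2R were 1.003 and 0.966. Over all arms and libraries the ratios lay between 0.707 and 1.20, but in this count X has 4 partner arms and each other arm 3. A further expectation used weights of the arms fitted to the contacts between different nuclear chromosomes of the same library, so that an arm with many contacts to other chromosomes was also expected to have many with chrM. This choice was made after the values were seen. By these weights the observed-to-expected ratios of all arms and libraries lay between 0.953 and 1.04, against 0.943 to 1.12 by ends, 0.839 to 1.08 by length and 0.707 to 1.20 by ends in contacts between chromosomes. The means were 1.01 for 2L, 1.001 for 3L, 1.01 for 3R and 1.01 for X, none of which passed the test after adjustment (exact sign-flip tests, adjusted p = 0.234, 0.820, 0.0781 and 0.211). Only 2R, with a mean of 0.971 and values of 0.953 to 0.991, did (exact sign-flip test, adjusted p = 0.0234). Arm 2R is the arm that carries the exchanged boundary. Its ratio was below 1 in all 4 genotypes, which all carry the cassette exchange. No unmodified 2R was analysed here, so a part of the exchange in this ratio cannot be told apart.

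**Figure D5:**
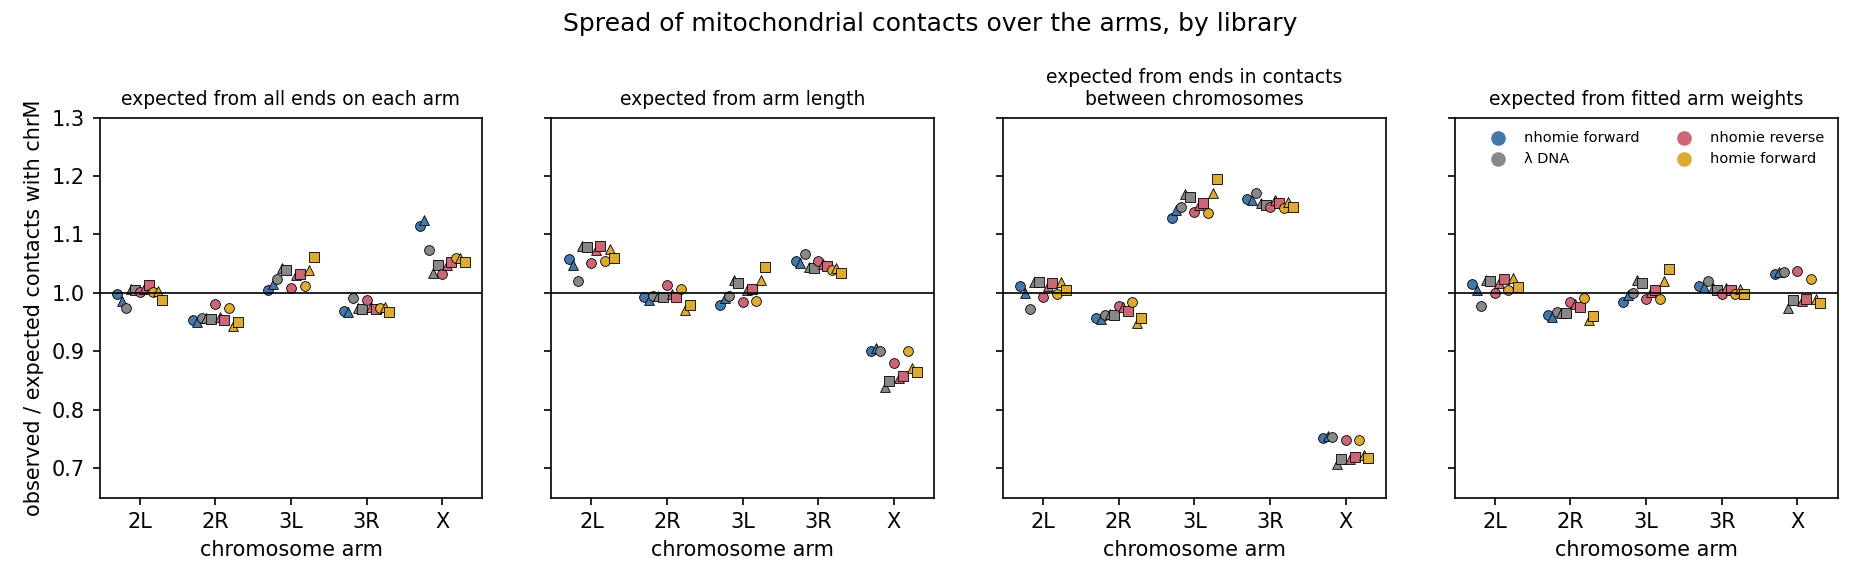
Observed over expected contacts of chrM with each arm, 1 symbol per library (color by genotype, circle, triangle and square for replicates 1, 2 and 3), with the expectation from all ends on each arm (far left), arm length (center left), ends in contacts between chromosomes (center right) and arm weights fitted to contacts between nuclear chromosomes (far right). X lies above 1 at the far left and below 1 in both center panels, the points at center right spread from 0.707 to 1.20, and those at the far right fall between 0.953 and 1.04.

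Between genotypes, the share of the contacts with the 5 arms that fell on X was 16.0% and 16.1% in *nhomie forward*, 16.0%, 14.9% and 15.1% in *λ DNA*, 15.6%, 15.2% and 15.2% in *nhomie reverse*, and 16.0%, 15.5% and 15.4% in *homie forward*. The 95% Wilson interval is at most 0.334 points on either side. Replicate 1 was the highest of its genotype in *homie forward*, *nhomie reverse* and *λ DNA*, and the ranges of all 4 genotypes came close to each other or overlapped. The test over genotypes called no difference (exact permutation test, p = 0.562, adjusted p = 0.610). The means ± SD (n = 2) were 16.1% ± 0.0653 for *nhomie forward*, 15.7% ± 0.405 for *homie forward*, 15.5% ± 0.710 for *λ DNA* and 15.4% ± 0.291 for *nhomie reverse*. None of the 5 measures of chrM passed the test over genotypes. With 2 samples a genotype this does not show that the replacements were alike. For the density ratio the samples of *nhomie forward* (2.59 and 2.67) and *nhomie reverse* (4.53 to 5.20) did not overlap. Relative to arm ends in contacts between chromosomes only, they did overlap (44.44 and 44.50 against 44.45 to 57.19). The exact permutation test over genotypes then gave p = 0.533. The 2 libraries of *nhomie forward* were alike over the arms, so their small spread may understate that between separate samples.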

How the data were processed

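Per the labels and the paper's methods, the authors mapped the pairs (BWA-MEM) on genomes of BDGP Release 6 (dm6) into which each replacement had been written, and parsed, de-duplicated and filtered pairs with Pairtools, removing half-mapped pairs and those of mapping quality under 3. The authors deposited, for each library before merging, 222 summary statistics of mixed kinds, of which the raw counts of pairs and the chromosome lengths were used. The deposited fractions were not used.

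Measures were computed in Python 3.11.15 (packages numpy 2.4.6 and, for the intervals and tests, scipy 1.17.1), plotted in matplotlib 3.10.9 and tested on simulated data. Counts by pair of sequences were checked to add up to all unique contacts. All 6 chrM classes were described, and no genes were selected. Over genotypes, 5 measures were compared with exact permutation tests, and 6 ratios were tested against 1 with exact sign-flip tests, each family adjusted by the Benjamini-Hochberg method at a threshold of 0.05. The members, measures and tests were chosen with earlier results of these data known. No count model was fitted, since classes of a library are not separate features.

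Over the 6 classes, the profiles of deviations from the genotype means were correlated in all 15 pairs of libraries of equal replicate number (log2 contacts per 1000000, 0.774 to 0.999). Their cosines, which also count the shift common to all classes, ran from -0.699 to 0.974 and were below 0 in 8 pairs, each with *homie forward*, so that these pairs deviated in opposite directions on the whole. No source used here says what libraries of a number share, so a block by number rests on the correlations alone. The study calls the libraries independent biological replicates without saying which cultures or collections they came from, so p-values measure the spread between these samples, which may in part be technical.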

Additional observations from a re-analysis of the deposited data

Results flagged for a closer look

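Replicates 2 and 3 moved in opposite directions from replicate 1 in different genotypes for 2 measures of chrM. The density of chrM ends relative to the arms was lower in *homie forward*, at 0.663 and 0.668 times replicate 1, and higher in *λ DNA* (1.46 in both) and *nhomie reverse* (1.15 in both). The ends on the arms that were joined to chrM, per 1000000, likewise fell in *homie forward* (0.749 and 0.730 times replicate 1) and rose in *λ DNA* (2.09 and 2.06) and *nhomie reverse* (1.46 and 1.44). These differences in direction were not tested, since each genotype has a single replicate 1. The share of cis contacts under 1 kb in the whole genome was higher in replicate 1 in all 3 of these genotypes, and its part in these shifts was not tested.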

How the results depend on the processing

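In the comparisons over genotypes, 81 of 81 alternatives stayed above the threshold (adjusted p from 0.104 to 0.971). Leaving out replicate 2 or 3 of *λ DNA*, *nhomie reverse* or *homie forward* only took 1 library from an averaged sample. Those alternatives could hardly change a call. With the replicate number as a block and 8 samples, the exact p was 0.208 for the density ratio, 0.417 for the cis share, 0.292 for arm ends joined to chrM, 0.125 for the ratio to contacts between chromosomes and 0.417 for the X share, where 0.0417 is the smallest possible. After adjustment this design could call a measure only if all 5 reached that smallest p, so its unchanged calls say little. The block over all 11 libraries also changed no call (adjusted p from 0.104 to 0.108). There the ratio to contacts between chromosomes had an exact permutation p of 0.0208. Of the 90 alternatives for the ratios tested against 1, 79 kept the call, and its direction where the test was passed, leaving out any library included. Among these 79, the ratio of 2L never passed. It crossed 1, from 0.997 to 1.003 by ends in contacts between chromosomes and to 1.01 by fitted weights. The remaining alternatives all changed the expectation, as that choice sets which ends count. By arm length the ratios were 1.06 for 2L, 0.995 for 2R, 0.999 for 3L, 1.05 for 3R and 0.882 for X. By ends in contacts between chromosomes, where X has 4 partner arms and the other arms 3, they were 1.16 for 3R and 0.738 for X. By fitted weights they were 1.001 for 3L, 1.01 for 3R and 1.01 for X. Counting nuclear ends only in contacts between chromosomes, with all ends of chrM kept, gave a ratio of 0.435, and this count cannot reach 1. Depth was no limit for these shares, while 2 samples a genotype were.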
